A study of Mus musculus with 8 samples.

Results

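The receptors for the cytokines IL-12, IL-18, IL-33 and IL-27, and the related receptors for IL-1 and IL-36, are built from several chains. Of the genes for these chains, 10 were studied: Il12rb1, Il12rb2, Il18r1, Il18rap, Il1rl1, Il1rl2, Il1r1, Il1r2, Il27ra and Il6st. These 10 genes were taken by symbol from the 54146 genes of the deposited RNA-seq values. They were compared over 4 lines of EL4 cells, a T lymphoma line from C57BL/6 mice. Every line carried retroviral transgenes and was stimulated for 4 h with PMA at 50 ng/ml and ionomycin at 1 μM, which bypass the T cell receptor. GFP + Plum cells carried control fluorescent proteins, T-bet + Plum cells FLAG-tagged T-bet with Plum, GFP + GATA3 cells HA-tagged GATA3 with GFP, and T-bet + GATA3 cells both tagged factors. Values from 2 libraries per line were analysed, and p-values measure the spread between harvests of the same line. Each combination of transgenes is 1 line, so an effect of the transgene and a property of the line cannot be told apart. In bulk RNA, fewer expressing cells and less RNA per cell cannot be told apart either.

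T-bet is the transcription factor that directs TH1 development, and GATA3 directs TH2 development. IL-12 signals through a pair of chains to the transcription factor STAT4, and IL-18, which belongs to the IL-1 family, signals through its own pair of chains and the adaptor MyD88. Both cytokines drive interferon gamma production by TH1 cells. IL-33 acts through ST2, the product of Il1rl1, which is best known in TH2 cells, mast cells and innate lymphoid cells. IL-27 uses a private chain together with gp130, the signalling chain shared by the IL-6 family.

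Total estimated counts ranged from 8038565 to 16003519 per library, and 3 counts corresponded to 0.187 to 0.373 CPM (counts scaled to library size) at these depths. Intervals on counts cover counting error only. Tbx21, which encodes T-bet, lay at 129 to 160 CPM in lines with the T-bet transgene and at 1.78 to 3.59 CPM in the others. Gata3 lay at 165 to 326 CPM in lines with the GATA3 transgene and at 25.8 to 53.3 CPM in the others, so the control lines also expressed Gata3. Of 12 T cell markers, 11 reached 1 TPM, a level scaled for transcript length and depth, in a library. None of 6 B cell markers or 3 NK cell markers did, and of 6 macrophage and monocyte markers 1 did, Cd68. Some markers moved with the T-bet transgene. Over both T-bet lines against both others, by edgeR's quasi-likelihood test, the T cell genes Lck (log2 fold change 1.52, adjusted p 0.00868) and Cd2 (3.01, adjusted p 5.28e-05) were higher. Lck lay at 32.5 to 50.7 TPM without T-bet and 55.5 to 158 with it, and Cd2 at 1.57 to 2.58 and 9.66 to 19.8. The T cell markers did not all rise. Of the 11 tested, 5 were higher and 1 lower at an adjusted p of at most 0.05 (all genes: 8.55% and 6.61%). Trac was lower in T-bet + Plum than in GFP + Plum (-0.82, adjusted p 0.00579, edgeR). It was also lower in T-bet + GATA3 than in GFP + GATA3 (-0.52, adjusted p 0.0372, edgeR). The macrophage gene Lyz2 was lower (-2.58, adjusted p 0.00837), at 0.522 to 0.689 TPM without T-bet and 0.0567 to 0.116 with it, that is 1 to 12 counts per library. With so few counts in the T-bet lines, it could be tested only through the lines without T-bet. Its adjusted p is therefore given as a description. The T cell list summed to 2732 to 3424 TPM without T-bet and 3745 to 4453 with it, and the macrophage list to 2.50 to 5.26 over all libraries. Trbc2 made up much of the T cell sum, at 1432 to 2124 TPM without T-bet and 2276 to 2871 with it. The part of these markers in the receptor levels was not tested.

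Of these genes, 6 lie side by side on chromosome 1 of mouse build GRCm38 within 477.627 kb, all on the forward strand, in the order Il1r2, Il1r1, Il1rl2, Il1rl1, Il18r1 and Il18rap. Il1rl1 (chr1:40429570-40465415) ends 136 bases before the start of Il18r1 (chr1:40465552-40500854), and Il18rap (chr1:40515362-40551705) starts 14507 bases after the end of Il18r1. Il1r1 (chr1:40225080-40317257) starts 204.49 kb before Il1rl1. The other 4 genes lie elsewhere: Il12rb1 at chr8:70808449-70821424, Il27ra at chr8:84030294-84042589, Il12rb2 at chr6:67291318-67376188 and Il6st at chr13:112464070-112510086. The sequences just before the annotated starts of Il1rl1, Il18r1 and Il18rap are shown because these neighbours moved together, and that of the second start of Il1r1 because the counts of this gene were highest in a line without T-bet. They are from RefSeq on GRCm38.p6, forward strand, 5′ to 3′, with exons left out, and capitals mark the GATA motif AGATAA on either strand:
Il1r1, second start, chr1:40266336-40266585: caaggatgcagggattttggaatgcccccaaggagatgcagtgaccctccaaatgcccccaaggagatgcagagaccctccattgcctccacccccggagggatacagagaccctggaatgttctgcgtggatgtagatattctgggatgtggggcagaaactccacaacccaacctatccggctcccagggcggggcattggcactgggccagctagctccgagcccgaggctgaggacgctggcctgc
Il1rl1, first start, chr1:40429320-40429569: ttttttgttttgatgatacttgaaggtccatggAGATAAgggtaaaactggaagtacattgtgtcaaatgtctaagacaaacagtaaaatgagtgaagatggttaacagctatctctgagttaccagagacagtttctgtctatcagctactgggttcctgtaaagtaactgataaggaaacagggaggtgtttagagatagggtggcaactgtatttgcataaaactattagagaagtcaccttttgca
Il1rl1, second start, chr1:40439379-40439626: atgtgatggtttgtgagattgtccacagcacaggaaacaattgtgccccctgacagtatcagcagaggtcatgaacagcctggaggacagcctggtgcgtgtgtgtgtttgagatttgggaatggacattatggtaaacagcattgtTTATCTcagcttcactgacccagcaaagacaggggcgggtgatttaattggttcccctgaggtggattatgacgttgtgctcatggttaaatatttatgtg
Il18r1, first start (the whole gap to Il1rl1), chr1:40465416-40465551: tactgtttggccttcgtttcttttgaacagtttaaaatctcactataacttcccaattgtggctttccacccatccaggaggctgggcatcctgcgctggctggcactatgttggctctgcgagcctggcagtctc
Il18r1, start 3, chr1:40465811-40465969: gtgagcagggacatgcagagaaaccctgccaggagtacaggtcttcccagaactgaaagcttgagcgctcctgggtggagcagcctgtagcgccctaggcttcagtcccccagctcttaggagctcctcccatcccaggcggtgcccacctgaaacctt
Il18rap, chr1:40515112-40515361: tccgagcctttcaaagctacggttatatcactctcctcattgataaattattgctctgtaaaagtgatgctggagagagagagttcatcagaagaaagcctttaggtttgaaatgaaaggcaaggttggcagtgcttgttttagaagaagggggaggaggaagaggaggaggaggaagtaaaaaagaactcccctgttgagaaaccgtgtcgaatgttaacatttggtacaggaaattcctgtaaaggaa
RefSeq gave 12 promoter windows, from 250 bases before to 50 after a start, for 8 of the 10 genes, and none was printed for Il12rb1 or Il27ra. AGATAA was present in 2 of the 12, both of Il1rl1, at position -217 from the first start and, on the reverse strand, at -103 from the second. It was present in 11.2% of all 32851 promoter windows. The T-box half-site GGTGTGA, searched on both strands, was in 0 of the 12 and in 3.98% of all windows. A match or its absence describes the letters of these windows only.

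IL-18 is bound by the chain encoded by Il18r1, and the accessory chain encoded by Il18rap is needed for signalling. Il18r1 showed the largest rise of the 7 genes tested in both comparisons of a T-bet line with its control. Its TPM were 1.04 and 0.869 in GFP + Plum, 22.9 and 22.7 in T-bet + Plum, 0.269 and 0.195 in GFP + GATA3 and 5.60 and 16.9 in T-bet + GATA3. Both T-bet lines lay above both lines without T-bet in every library, and the 2 T-bet + GATA3 libraries differed from each other more than the others did. The estimated counts were 48 and 34 in GFP + Plum, 562 and 1062 in T-bet + Plum, 8 and 8 in GFP + GATA3 and 182 and 777 in T-bet + GATA3, so the values of GFP + GATA3 rest on 8 counts each.

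Calls were made with edgeR's quasi-likelihood test. A called gene had an adjusted p (FDR, Benjamini-Hochberg over 14791 genes) no higher than 0.05, and its log2 fold change (log2 FC) exceeded 1.5 in either direction. Il18r1 rose in T-bet + Plum relative to GFP + Plum with a log2 FC of 4.79 (SE 0.46, FDR 0.00106, edgeR). It rose in T-bet + GATA3 relative to GFP + GATA3 with a log2 FC of 5.85 (SE 0.55, FDR 0.00102, edgeR), and relative to GFP + Plum with a log2 FC of 3.81 (SE 0.45, FDR 0.00283, edgeR). These comparisons share libraries and are not independent of each other.

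Il18rap had TPM of 1.05 and 1.45 in GFP + Plum, 6.97 and 8.74 in T-bet + Plum, 0.831 and 1.29 in GFP + GATA3 and 2.31 and 6.77 in T-bet + GATA3. T-bet + Plum was above both lines without T-bet in each library, as was T-bet + GATA3, by a smaller margin in its replicate 1. Il18rap rose in T-bet + Plum relative to GFP + Plum (log2 FC 2.72, SE 0.49, FDR 0.0164, edgeR) and in T-bet + GATA3 relative to GFP + GATA3 (log2 FC 2.75, SE 0.52, FDR 0.0197, edgeR). The comparison of T-bet + GATA3 with GFP + Plum gave a log2 FC of 2.03 and an FDR of 0.0549 (edgeR), short of the threshold, and 0.00554 without T-bet + GATA3 replicate 1. Without either library of GFP + GATA3 the call in T-bet + GATA3 over GFP + GATA3 was lost (FDR 0.126 and 0.117), and its log2 FC was 1.64 without T-bet + GATA3 replicate 2 and 3.31 without replicate 1. Leaving out either library of T-bet + Plum or of GFP + Plum raised the FDR of the first comparison to between 0.0535 and 0.116.

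The TPM ratio of Il18r1 to Il18rap was 0.995 and 0.600 in GFP + Plum and 0.323 and 0.151 in GFP + GATA3. It was 3.29 and 2.60 in T-bet + Plum and 2.43 and 2.50 in T-bet + GATA3. The ratios were above 1 in the T-bet lines and below 1 in the others, and those of GFP + GATA3 rest on 8 counts of Il18r1. These sums include transcripts of Il18rap that keep an intron, which held 40.4% to 79.7% of its TPM in the lines without T-bet, and the main coding forms are compared with the transcripts. T-bet + GATA3 replicate 1 had less of both chains than replicate 2 but a near-equal ratio. That library had 9807867 estimated counts in total against 15286368, and 135 against 160 CPM of Tbx21, and the part of these differences in the chain levels was not tested.

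**Figure D1:**
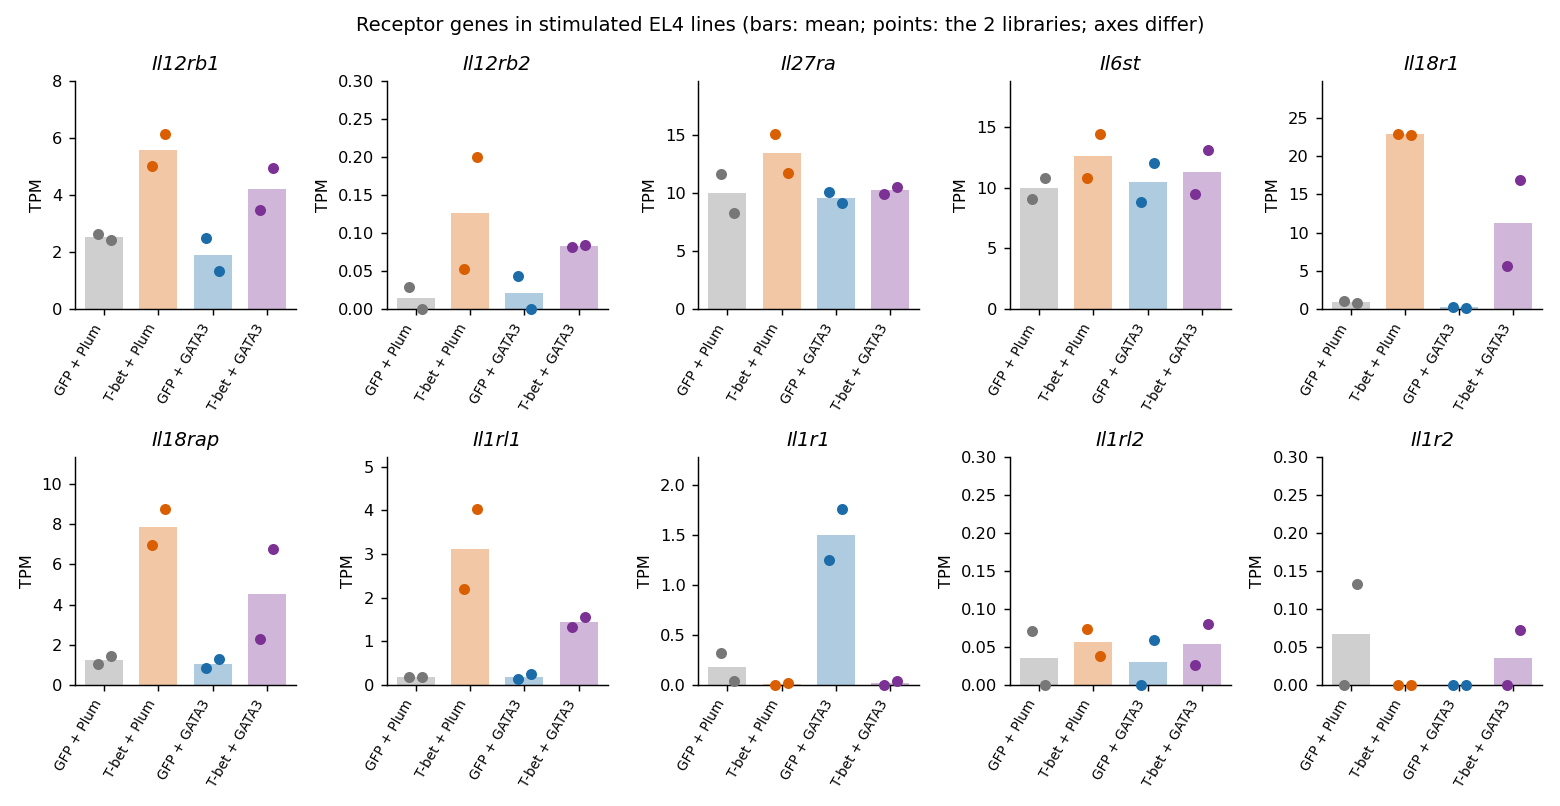
Levels of the 10 receptor genes in TPM (vertical axes from 0, with different ranges) in the 4 lines. Bars are means and points the 2 libraries. Il18r1, Il18rap, Il1rl1 and Il12rb1 are higher in the lines with T-bet, Il1r1 reaches 1.25 and 1.76 TPM in GFP + GATA3, and Il12rb2, Il1rl2 and Il1r2 stay at or below 0.200 TPM.

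IL-33 is sensed by ST2, the product of Il1rl1, which pairs with the accessory chain IL-1RAcP. Il1rl1 had TPM of 0.187 and 0.176 in GFP + Plum, 2.19 and 4.02 in T-bet + Plum, 0.129 and 0.239 in GFP + GATA3 and 1.33 and 1.55 in T-bet + GATA3. Both lines with T-bet were above both lines without it in every library, and the 2 control lines overlapped each other. The rise in T-bet + Plum over GFP + Plum had a log2 FC of 4.12 (SE 0.43, FDR 0.00157, edgeR). The rise in T-bet + GATA3 was 3.02 over GFP + GATA3 (SE 0.45, FDR 0.00793, edgeR) and 2.78 over GFP + Plum (SE 0.43, FDR 0.0100, edgeR). The estimated counts were 12 and 12 in GFP + Plum, 80 and 238 in T-bet + Plum, 5 and 12 in GFP + GATA3 and 34 and 100 in T-bet + GATA3. Without either library of GFP + GATA3, the FDR of its comparison with T-bet + GATA3 was 0.0558 or 0.0628.

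Il1rl1 is also a gene of mast cells and basophils, so their markers were read beside it. Of 5 such markers, 1 reached 1 TPM, the protease gene Cpa3, and the list summed to 75.4 to 158 TPM in GFP + Plum, 58.6 to 69.5 in GFP + GATA3, 2.86 to 3.92 in T-bet + Plum and 8.15 to 10.5 in T-bet + GATA3. The sums are nearly all Cpa3, which was lower over both T-bet lines (log2 FC -4.01, SE 0.28, FDR 0.000101, edgeR). Of the other markers, Fcer1a and Ms4a2 were at 0 in every library, Kit did not exceed 0.141 TPM, and Mcpt8 was at 0 in all libraries but T-bet + Plum replicate 2 (0.188 TPM) and T-bet + GATA3 replicate 1 (0.397 TPM).

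The transcripts of Il1rl1 encode a long form, the membrane receptor of 567 residues, and a short soluble form of 337 residues that binds IL-33 as a decoy. The long form, Il1rl1-201 and Il1rl1-202 together, held 92.3% and 79.5% of the gene's TPM in T-bet + Plum and 47.0% and 82.5% in T-bet + GATA3. The short form Il1rl1-203 held 7.72% and 7.44% in T-bet + Plum and 0% and 17.5% in T-bet + GATA3. In T-bet + GATA3 replicate 1 the remaining 53.0% lay on the other 2 transcripts, which are short and together rested on 3.31 estimated counts. One of these begins at the first start, also encodes 337 residues, and did not exceed 0.143 TPM. In the lines without T-bet the gene had 5 to 12 counts per library, too few to divide between forms. By TPM the long form was the larger part in 3 of the 4 libraries with T-bet. By estimated counts it held 77.2 of 80 and 223 of 238 in T-bet + Plum, and 30.7 of 34 and 90.3 of 100 in T-bet + GATA3. The deposited values carry no error for the split.

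Transcripts of Il18r1 and Il18rap also differed in what they encode. The 537-residue form of Il18r1 held 64.4% and 70.1% of the gene's TPM in T-bet + Plum and 68.2% and 66.7% in T-bet + GATA3, and shorter forms of 372 and 267 residues held the rest. The coding transcript of Il18rap, Il18rap-201 with 614 residues, held 49.0% and 52.9% of TPM in T-bet + Plum and 37.9% and 54.8% in T-bet + GATA3. The rest lay on transcripts that keep an intron. Because some of these are short, they held fewer counts than TPM: the coding transcript had 125 of 143 and 309 of 351 estimated counts in T-bet + Plum. Between the 2 main coding forms, the 537-residue form of Il18r1 had 14.8 and 15.9 TPM in T-bet + Plum, and Il18rap-201 had 3.42 and 4.62. In T-bet + GATA3 they had 3.82 and 11.3 against 0.875 and 3.71. In the lines without T-bet both coding forms were below 1 TPM, at 0.704 and 0.313 against 0.624 and 0.498 TPM in GFP + Plum, and 0.177 and 0.109 against 0.220 and 0.262 in GFP + GATA3. The Il18r1 form was thus the higher of the pair in all libraries with T-bet and in GFP + Plum replicate 1.

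**Figure D2:**
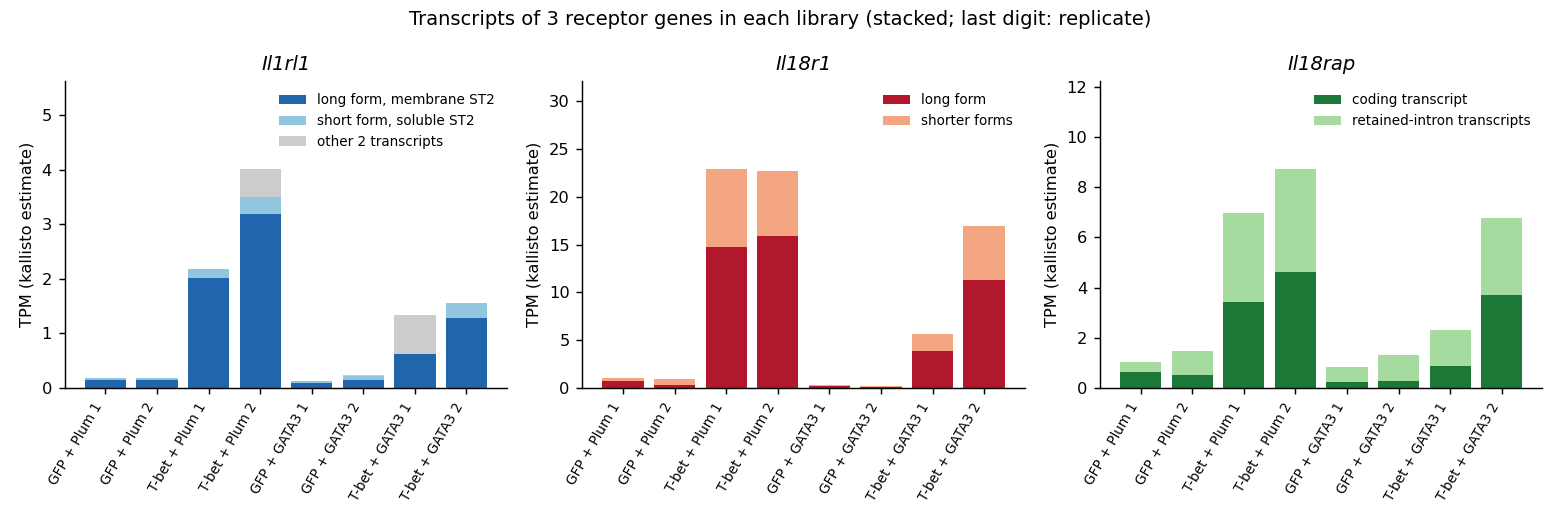
Stacked TPM of transcript forms of Il1rl1, Il18r1 and Il18rap in each of the 8 libraries (horizontal axis: line and replicate; vertical axes from 0, with different ranges). The long form of Il1rl1 reaches 3.19 TPM in T-bet + Plum replicate 2, and the grey part in T-bet + GATA3 replicate 1 rests on 3.31 estimated counts.

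Il1r1 encodes the signalling receptor for IL-1 and had few counts in most libraries. Its estimated counts were 23 and 3 in GFP + Plum, 0 and 1 in T-bet + Plum, 58 and 116 in GFP + GATA3 and 0 and 3 in T-bet + GATA3, and its TPM in GFP + GATA3 were 1.25 and 1.76. Both T-bet lines were at 0 to 3 counts, GFP + GATA3 was high in both libraries, and the GFP + Plum libraries differed from each other. It passed the filter on low counts only through GFP + GATA3, the only line in which both libraries exceeded the minimum, so a difference from that line was needed for it to be tested, and its FDR values are given as a description. GFP + GATA3 had 53.7 times the CPM of T-bet + GATA3 (95% exact counting interval 18.1 to 263, from 174 against 3 counts), with an FDR of 0.0154 (edgeR). Without either GFP + GATA3 library this FDR was 0.0524 or 0.0867, and without T-bet + GATA3 replicate 1 it was 0.0836. GFP + Plum had 18.5 times the CPM of T-bet + Plum (interval 3.03 to 757, from 26 against 1 counts), which did not pass (FDR 0.165, edgeR) and gave 0.0442 without GFP + Plum replicate 2. GFP + GATA3 had 8.15 times the CPM of GFP + Plum (interval 5.38 to 12.8), but the libraries of GFP + Plum lay at 23 and 3 counts and the FDR was 0.611 (edgeR).

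Of the annotated transcripts of Il1r1, Il1r1-202 begins 41506 bases downstream of the gene's start and encodes 573 residues. It held 73.7% and 100% of the gene's TPM in GFP + GATA3, at 0.922 and 1.76 TPM. Il1r1-201, from the first start, had 0.329 and 0 TPM there. Il1r1 is also a gene of fibroblasts and endothelium, and 2 of their 5 markers reached 1 TPM, Pdgfra and Pecam1. Pdgfra was lower over both T-bet lines (log2 FC -1.81, SE 0.19, FDR 0.000707, edgeR). The list summed to 6.89 to 10.8 TPM in GFP + Plum, 2.89 to 3.48 in T-bet + Plum, 10.8 to 12.1 in GFP + GATA3 and 2.82 to 3.94 in T-bet + GATA3. The collagen genes Col1a1 and Col1a2 stayed below 1 TPM and Cdh5 was at 0 in every library, and the part of these cells in the level of Il1r1 was not tested. The noncoding gene Gm38070 overlaps Il1r1 on the same strand and had at most 18 counts in a library. Il1r2, the decoy receptor for IL-1, had 0 to 2 counts per library, and Il1rl2, the receptor for IL-36, had 0 to 4, so both were at or near the floor of 3 counts and could not be compared.

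Of the 6 genes of the chromosome 1 cluster, the 3 at the downstream end (Il1rl1, Il18r1 and Il18rap) were each called higher in T-bet + Plum over GFP + Plum and in T-bet + GATA3 over GFP + GATA3, and the 3 at the upstream end had too few counts for a like comparison outside GFP + GATA3. Among 9 other protein-coding genes within 500 kb of the cluster, 8 were in the files and 3 passed the filter, and 0 of the 3 were called by edgeR or DESeq2 in any comparison. With at most 4.5% of all genes called in a comparison, 0 of 3 does not set these neighbours apart from other genes. Map4k4, a kinase gene with 42.4 to 63.2 TPM, had a log2 FC of -0.03 (SE 0.11, FDR 0.917, edgeR) for lines with T-bet against lines without. In the same comparison, Rnf149 (0.98, FDR 0.00762) and Rfx8 (1.31, FDR 0.0370) passed the FDR of edgeR but not the fold, and 2 of the 3 were at an unadjusted p under 0.05. Of all 14791 genes tested, 2242 passed this FDR and 4322 were at an unadjusted p under 0.05.

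**Figure D3:**
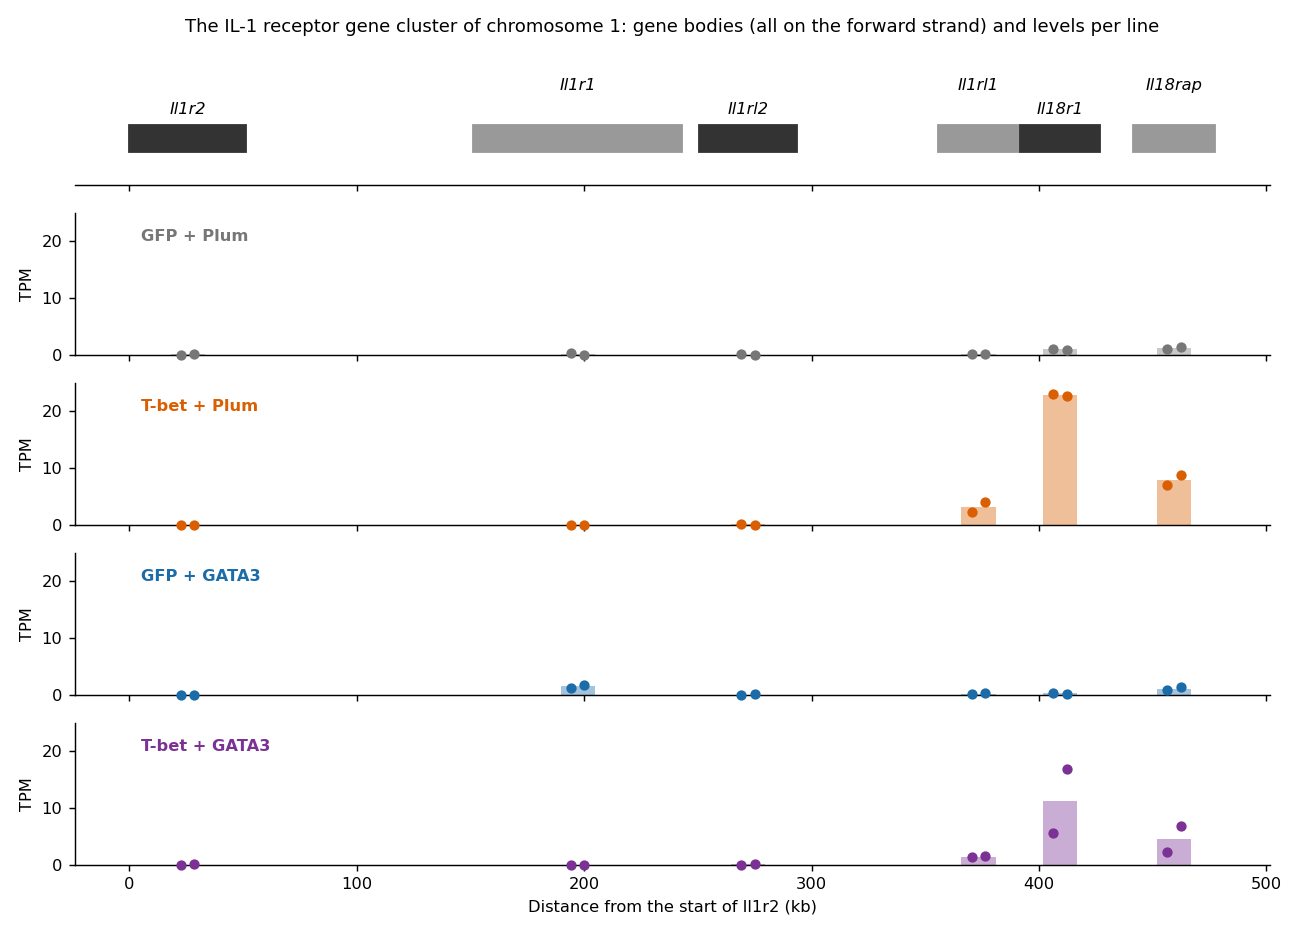
The IL-1 receptor gene cluster, with gene bodies to scale against distance in kb from the start of Il1r2 (upper panel, alternating shades only to part neighbours), and TPM of each gene in each line (lower panels, bars are means, points the 2 libraries, same axis from 0 to 25). Il1rl1, Il18r1 and Il18rap are higher in the T-bet lines, and Il1r1 is highest in GFP + GATA3.

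The IL-12 receptor needs both Il12rb1, a chain shared with the IL-23 receptor, and Il12rb2, the chain that recruits STAT4. Il12rb1 had TPM of 2.66 and 2.43 in GFP + Plum, 5.03 and 6.16 in T-bet + Plum, 2.49 and 1.35 in GFP + GATA3 and 3.50 and 4.97 in T-bet + GATA3. Each T-bet library lay above each library without T-bet. Its rise was smaller than that of the IL-18 receptor: the log2 FC was 1.88 in T-bet + GATA3 over GFP + GATA3 (SE 0.28, FDR 0.00835, edgeR) and 1.501 in T-bet + Plum over GFP + Plum (SE 0.27, FDR 0.0175, edgeR). The first call was lost with transcript length offsets (log2 FC 1.37, FDR 0.0514) and without GFP + GATA3 replicate 2 (FDR 0.0890). The second value lay just inside the fold threshold, and every alternative in which its call was lost gave 1.20 to 1.499. Without GFP + Plum replicate 1 its FDR was 0.0607, and without T-bet + Plum replicate 2 it was 0.144. The value of T-bet + GATA3 over GFP + Plum lay just outside it, at 1.28 (SE 0.27, FDR 0.0358, edgeR). Il12rb2 had 0 to 7 counts per library and at most 0.200 TPM, in T-bet + Plum replicate 2, so it failed the filter and no change could be tested. Its gene body overlaps Serbp1 on the other strand, and its reads were assigned to Il12rb2-202.

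Il27ra encodes the private chain of the IL-27 receptor and Il6st encodes gp130. Il27ra had TPM of 11.6 and 8.28 in GFP + Plum, 15.1 and 11.7 in T-bet + Plum, 10.1 and 9.15 in GFP + GATA3 and 9.96 and 10.5 in T-bet + GATA3, and Il6st had 9.09 and 10.8 in GFP + Plum, 10.8 and 14.4 in T-bet + Plum, 8.83 and 12.0 in GFP + GATA3 and 9.49 and 13.1 in T-bet + GATA3. These TPM ranges overlapped between lines with T-bet and lines without. In CPM, Il27ra lay at 19.8 to 24.4 without T-bet and 25.5 to 33.8 with it, without overlap. Il6st CPM were 47.8 and 63.7 in GFP + Plum, 63.3 and 79.6 in T-bet + Plum, 48.9 and 63.4 in GFP + GATA3 and 61.6 and 75.4 in T-bet + GATA3, so the groups overlapped, while libraries of the same replicate number were higher with T-bet in both backgrounds. Over both T-bet lines Il27ra had a log2 FC of 0.38 (SE 0.11, FDR 0.0589, edgeR) and Il6st 0.32 (SE 0.15, FDR 0.185, edgeR). With the replicate number as a block these FDR were 0.0267 and 0.0173 (edgeR), with log2 FC of 0.39 and 0.33, under the fold threshold. Il27ra gave a log2 FC of 0.46 (SE 0.16, FDR 0.163, edgeR) and Il6st 0.36 (SE 0.21, FDR 0.389, edgeR) for T-bet + Plum over GFP + Plum, neither past the threshold. The highest transcript shares were those of Il27ra-201, the 623-residue form, and Il6st-201, one of 3 transcripts that encode gp130 of 917 residues.

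The order of the TPM levels was led by Il27ra and Il6st in GFP + Plum and GFP + GATA3. In T-bet + Plum, Il18r1 was the highest of the 10, at 22.9 and 22.7 TPM, and its rank was 5 in GFP + Plum. In T-bet + GATA3 the libraries disagreed, with Il18r1 at 5.60 and 16.9 TPM below or above Il27ra at 9.96 and 10.5.

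**Figure D4:**
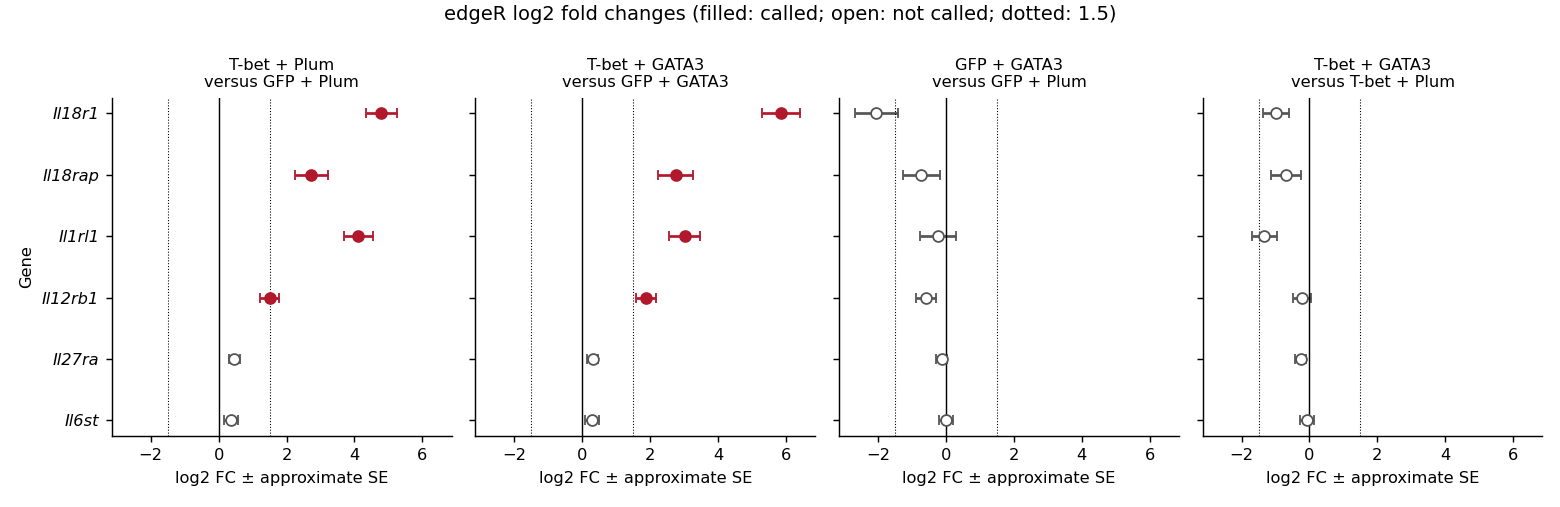
Log2 FC of 6 of the 7 tested receptor genes (Il1r1 is left out because T-bet lines had at most 3 counts) in 4 comparisons, with approximate SE as bars. Filled points are called and open points are not. In the T-bet panels Il18r1 reaches 4.79 and 5.85, and in the GATA3 panels no point is filled.

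The number of receptor genes called is set beside the share of all genes called, as a description. The receptor genes were chosen with earlier results of these data known. The neighbours Il1rl1, Il18r1 and Il18rap also moved together (r of log2 CPM 0.963 to 0.975), so their calls are not independent. Of the 10, 7 passed the filter on low counts, 4 rose in T-bet + Plum over GFP + Plum and 0 fell, where 3.02% of all tested genes were called (2.12% higher and 0.892% lower). These 4 include Il12rb1, and DESeq2 and the other scalings called 3 without it. In T-bet + GATA3 over GFP + GATA3, 4 rose, where 2.85% of all genes were called (1.99% higher and 0.859% lower). In T-bet + GATA3 over GFP + Plum, 2 rose, where 2.61% were called (1.94% higher and 0.669% lower). Over both T-bet lines against both others, 4 rose, where 4.5% were called (2.91% higher and 1.59% lower). Il18r1 had a log2 FC of 5.32 (SE 0.36, FDR 7.81e-05), Il1rl1 of 3.57 (SE 0.31, FDR 0.000265), Il18rap of 2.74 (SE 0.35, FDR 0.00175) and Il12rb1 of 1.69 (SE 0.20, FDR 0.00109), all by edgeR. With transcript length offsets Il12rb1 had 1.29 there and was not called. Il1r1 is not counted in these numbers, since it was tested only through the line where it was high. It was past the threshold, lower, over both T-bet lines (FDR 0.00709, edgeR) and in T-bet + GATA3 over GFP + GATA3.

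The GATA3 transgene alone called 0 of the 10 in GFP + GATA3 over GFP + Plum by edgeR, where 0.0203% of all genes were called. At an unadjusted p under 0.05 there were 2, beside 547 of all 14791 genes: Il18r1 lower (log2 FC -2.04, SE 0.65, FDR 0.949) and Il1r1 higher (FDR 0.611). DESeq2 called Il18r1 lower, where it called 29 of all 14791 genes. The GFP + GATA3 values of Il18r1 rest on 8 counts in each library. Comparing T-bet + GATA3 with T-bet + Plum called 0 by edgeR and 0 by DESeq2, where edgeR called 0.0338% of all genes (0.0203% higher and 0.0135% lower). Beside 559 of all 14791 genes, 2 receptor genes were at an unadjusted p under 0.05. These were Il1rl1, with a log2 FC of -1.33 (SE 0.36, FDR 0.904), and Il18r1, with -0.99 (SE 0.37, FDR 1.0). Both were lower in the line with both factors, and the libraries of the lines do not overlap for Il18r1 or Il1rl1 in TPM. Over both GATA3 lines against both others, edgeR called 0 and DESeq2 called 1, Il18r1. There edgeR called 0.0473% of all genes (0.027% higher and 0.0203% lower), and DESeq2 called 30 of 14791. The log2 FC of Il18r1 in edgeR was -1.52 (SE 0.37, FDR 0.420).

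Whether the effect of T-bet depended on the GATA3 transgene was tested as an interaction, called by FDR alone. edgeR called 0 of all 14791 genes, with 381 at an unadjusted p under 0.05, and DESeq2 called 15. Of the receptor genes, 0 were called by either and 0 had an unadjusted p under 0.05 in edgeR. The estimates ran from -1.69 for Il1r1 (SE 2.92) through -1.10 for Il1rl1 (SE 0.64) to 1.06 for Il18r1 (SE 0.76). The standard errors leave room for differences of either sign.

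The ligands of these receptors were compared from a list of 26 names, older synonyms included, of which 22 were in the files and 9 passed the filter. Of the 9, over both T-bet lines against both others, 2 rose and 1 fell, where 2.91% of all genes were called higher and 1.59% lower. The median log2 FC was 0.28 beside 0.02 over all genes. The fall was Il33, which encodes the ligand of ST2. Its TPM were 12.1 and 2.45 in GFP + Plum, 1.01 and 0.321 in T-bet + Plum, 9.95 and 8.42 in GFP + GATA3 and 0.781 and 0.216 in T-bet + GATA3. Ligand and receptor thus moved in opposite directions: Il33 had a log2 FC of -3.91 (SE 0.60, FDR 0.00388, edgeR), while the GFP + Plum libraries differed from each other.

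Il18, which encodes the ligand of the IL-18 receptor, rose with its receptor. Its TPM were 9.65 and 12.0 in GFP + Plum, 35.3 and 23.9 in T-bet + Plum, 5.74 and 5.46 in GFP + GATA3 and 20.9 and 20.3 in T-bet + GATA3. The log2 FC over both T-bet lines was 1.74 (SE 0.17, FDR 0.000519, edgeR). Between 2 lines, Il18 was called in T-bet + GATA3 over GFP + GATA3 (2.06). Over GFP + Plum it passed the FDR but not the fold, at 1.41 in T-bet + Plum and 1.06 in T-bet + GATA3. Il23a, the p19 subunit of IL-23, which binds the receptor that contains Il12rb1, rose with a log2 FC of 3.76 (SE 0.46, FDR 0.00138, edgeR), from 0.354 to 1.65 TPM without T-bet to between 5.82 and 16.0 with it. Il12b, the other subunit of IL-23, and Il23r, the other chain of its receptor, were at 0 TPM in every library.

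Among 13 other receptor chains of these families, 4 passed the filter. Over both T-bet lines against both others, 1 rose and 1 fell, where 2.91% of all genes were called higher and 1.59% lower. The median log2 FC was 0.68 beside 0.02 over all genes. By FDR alone 2 were higher and 1 lower. Sigirr, at 8.47 to 34.8 TPM, passed the FDR but not the fold in T-bet + Plum over GFP + Plum (1.34, FDR 0.0461, edgeR). Il1rap, the accessory chain IL-1RAcP that Il1rl1, Il1r1 and Il1rl2 all use, rose with a log2 FC of 1.69 (SE 0.12, FDR 0.000106, edgeR). Its TPM were 3.85 and 2.99 in GFP + Plum, 10.3 and 9.75 in T-bet + Plum, 2.43 and 2.14 in GFP + GATA3 and 6.83 and 6.55 in T-bet + GATA3. Il6ra, the IL-6 binding chain that uses gp130, fell with a log2 FC of -1.75 (SE 0.23, FDR 0.00174, edgeR). Its TPM were 2.29 and 1.97 in GFP + Plum, 0.726 and 0.682 in T-bet + Plum, 4.24 and 5.84 in GFP + GATA3 and 1.55 and 0.776 in T-bet + GATA3. In T-bet + GATA3 over GFP + Plum it was not called (log2 FC -0.71, FDR 0.285, edgeR).

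Of 15 signalling genes downstream of the IL-1 family, from Myd88 to Nfkbiz, 13 passed the filter and 0 were called by edgeR or DESeq2 over both T-bet lines, with 7 at an unadjusted p under 0.05, 3 of them (1 higher and 2 lower) also past the FDR, and a median log2 FC of -0.10. With 4.5% of all genes called, 0 of 13 is near the background. An unadjusted p under 0.05 was reached by 4322 of all 14791 genes, and by FDR alone 8.55% were higher and 6.61% lower. Of 9 signalling genes of the IL-12 and gp130 receptors, 8 passed the filter and 1 was called, Stat4, which encodes the transcription factor that IL-12 activates. By FDR alone 5 of the 8 were higher and 0 lower, where 8.55% of all genes were higher and 6.61% lower, and the median log2 FC was 1.10. Stat4 had 1.12 and 2.09 TPM in T-bet + Plum and 1.32 and 1.22 in T-bet + GATA3. It had 0.133 and 0 TPM in GFP + Plum and was at 0 in both GFP + GATA3 libraries (FDR 0.000435 over both T-bet lines, edgeR). Stat4 thus passed the filter on low counts only through the T-bet lines. Its FDR is given as a description, and the 1 called and the 5 higher include it.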

How the data were processed

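RNA-seq values of 8 libraries were analysed, 2 for each of 4 EL4 lines. The authors trimmed paired-end reads with Trim Galore after FastQC and quantified them with kallisto. Tool versions are not given in the sources used here. The methods name Gencode M20, whereas the deposited transcript names are those of M18, on GRCm38. The authors deposited estimated counts (not normalized) and TPM (scaled for length and depth) for 136535 transcripts per library, and the lengths were used only for offsets.

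Estimated counts and TPM were summed per gene ID with its symbol, and counts were rounded. Counts were tested with edgeR 4.0.16 in R 4.3.3 (TMM, filterByExpr, quasi-likelihood, Benjamini-Hochberg over 14791 genes) in 1 fit over all lines. SEs are the log2 FC over the square root of F. CPM used TMM-scaled library sizes. Positions are from Gencode M21 and promoters from RefSeq. Scripts were tested on simulated data. Replicates differed by more than counting noise (chi-square per degree of freedom 10.2 to 30.9).

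All 10 receptor genes are given in each line. Genes of the ligand, receptor chain and signalling lists are named where they were called between 2 lines, with the tested neighbours of the cluster. Called cell type markers are named too, and some genes that were not called are given beside them. The receptor genes and lists were chosen with earlier results of these data known. Alternatives were other scalings, length offsets, DESeq2 1.42.0, other filters, a replicate block, the libraries of a contrast alone, and each library left out.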

Additional observations from a re-analysis of the deposited data

How the results depend on the processing

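Of 564 recomputed values, 522 kept their direction and side of the threshold, 27 lost a call, 14 gained one and 1 reversed. The number of receptor genes called in T-bet + Plum over GFP + Plum, 4, was 2 with at least 10 counts in every library. It was 3, without Il12rb1, with each other scaling, with length offsets and with DESeq2. The same 3 were called with the replicate block and with the libraries of the contrast alone. Without a filter it was 4, with Il1r1 in place of Il12rb1. With a library left out, the log2 FC was 1.25 to 1.76 for Il12rb1 and 2.49 to 2.92 for Il18rap. Neither was called when GFP + Plum replicate 1 or T-bet + Plum replicate 2 was left out. In T-bet + GATA3 over GFP + Plum the number, 2, was 4 without a filter, with Il18rap and Il1r1 added, where 762 of 30930 genes were called. It was 0 with at least 10 counts. With a library left out, the log2 FC was 2.90 to 4.30 for Il18r1 and 2.24 to 3.11 for Il1rl1. In T-bet + GATA3 over GFP + GATA3 the number with Il1r1 included, 5, was 2 with at least 10 counts and 1 to 5 with a library left out. It was 2 without GFP + GATA3 replicate 1 and 1 without replicate 2. Over both T-bet lines, 5 were called with Il1r1 included, 2 with at least 10 counts, and 5 with any library left out. The filter at 10 counts left 4 of the 10 to test, without Il18r1, Il1rl1 and Il1r1. The GATA3 comparison with GFP + Plum, 0, was 1 with DESeq2 (Il18r1), where 29 of 14791 genes were called, beside 3 in the main fit. It was 2 without a filter (Il18r1 and Il1r1), where 138 of 30930 genes were called. Over both GATA3 lines, 0 became 1 with DESeq2 and 1 without a filter, each time Il18r1. All genes called there were 30 of 14791 and 136 of 30930, beside 7 in the main fit. With a library left out, the log2 FC of Il18r1 over both GATA3 lines was -1.95 to -1.26. The interaction estimate of Il1r1, -1.69, was -5.43 to 0.76 with a library left out, the latter without T-bet + Plum replicate 2. Il12rb1 in T-bet + Plum over GFP + Plum had a log2 FC of 1.20 and an FDR of 0.0702 with length offsets. Same-numbered libraries of the lines were correlated in their deviations at r of -0.05 to 0.30, above 0.1 in 4 of 6 pairs of lines. These values do not settle whether the numbers pair the libraries. The main fit left the replicate number out, and the block is given as an alternative. The block raised the genes called in T-bet + Plum over GFP + Plum from 446 to 536. With the replicate block, the numbers called were 3 in T-bet + Plum over GFP + Plum, where Il12rb1 had a log2 FC of 1.498, and 3 in T-bet + GATA3 over GFP + Plum, where Il18rap had an FDR of 0.0183. Counts of 0 to 8 limit what can be said of Il12rb2, Il1rl2, Il1r2, and of Il18r1 in GFP + GATA3. Where leaving out a library left a line with 1 library, that library was assumed to vary like the others.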

Other observations

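The genes whose levels followed a receptor gene most closely over the 8 libraries were found among 11057 protein-coding genes by Pearson's r of log2 CPM, as a description, since the libraries share lines and transgenes. For Il18r1 they were a gene known by its clone name (r = 0.993), the tetraspanin gene Cd82 (0.991) and the kinesin gene Kif21b (0.990). For Il1rl1 they were Vwa2 (0.994), Mgat4a (0.990) and Spata13 (0.988), and Spata13 was also the closest to Il18rap (0.983), before the same clone-named gene (0.982) and Snx11 (0.979). For Il12rb1 they were Sp110 (0.990), Uri1 (0.988) and the prostaglandin receptor gene Ptger4 (0.984). For Il1r1 the closest was Adpgk (0.992), although its levels varied only from 115 to 169 CPM, before Dnajb4 (0.977) and Dip2a (0.971).

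The balance of the IL-27 receptor chains lay further towards Il6st in replicate 2 than in replicate 1 of each line. A difference by replicate number or by line was not tested. The TPM ratio of Il6st to Il27ra was 0.780 in replicate 1 and 1.31 in replicate 2 of GFP + Plum, and 0.716 and 1.23 in those of T-bet + Plum. It was 0.879 and 1.32 with GATA3 and GFP, and 0.953 and 1.25 with both factors. Replicate 1 also had fewer total estimated counts in each line, at 8038565 to 15385166 against 14878505 to 16003519. The part of depth in the ratio was not tested.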
